A study of Mus musculus with 8 samples.

Results

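The genes described here are 9 genes through which hepatocytes make, export, store and burn glucose, namely Pcx, Pck1, Fbp1, G6pc, Gckr, Pklr, Slc2a2, Gys2 and Ppargc1a. They were grouped by function, with earlier results of these data known, and they are 9 of 21755 protein-coding genes on mouse chromosomes 1 to 19 and X. ATAC-seq, in which a transposase inserts sequencing adapters into accessible DNA, had been run on nuclei of frozen adult liver from C57BL/6 mice (C57BL/6J in the study's methods), in 8 libraries made from 50000 nuclei apiece, 4 for each genotype. In Alb-D2KO mice a floxed Dio2, the gene of the type 2 deiodinase that converts thyroxine to its active form, is inactivated by a Cre recombinase under the albumin promoter, which acts in hepatocytes. The controls, marked "cre" in the sample titles, were read as mice that carry Cre without Dio2 inactivation, since the study describes the controls of its other assays as expressing Cre. Nuclei came from whole liver, so each library also holds nuclei of cells in which this Cre is not active.

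Both deposited lists, on the mm10 build, hold regions that differed between genotypes. One has 8031 regions called open in control liver without an overlapping call in the knockout, named lost regions here, and the other has 250 regions of the reverse kind, named Alb-D2KO-only. Each region carries a signal, the summed area (AUC) of −log10 p along it, which grows with both the strength and the width of the signal, and the −log10 q of its summit. The smallest AUC kept was 200, and the median lost region had an AUC of 278, a width of 326 bp and a −log10 q of 3.14. All of these values come from calls that pooled the libraries of a genotype, so every region has 1 value with no error, and no test of the genotypes could be run for any gene. In whole tissue, fewer cells with an open region and a less open region in each cell cannot be told apart. The lists do not give sequencing depth.

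Because the lists hold only regions that differed, the liver label could be checked only in part. Of 6 hepatocyte markers, 5 had a lost region in the gene body or within 10 kb, and so did 0 of 5 macrophage, 0 of 5 stellate cell, 2 of 5 endothelial, 1 of 4 cholangiocyte and 1 of 3 lymphocyte markers, beside 25.3% of all protein-coding genes. No marker had an Alb-D2KO-only region. The part of cell makeup in the results below was not tested.

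Gluconeogenesis builds glucose from lactate, amino acids and glycerol during fasting, and the liver is its main site. Pyruvate is carboxylated in mitochondria, turned into phosphoenolpyruvate, carried back up the glycolytic sequence, and freed from its phosphate at the last step so that it can leave the cell. Glucagon, glucocorticoids and thyroid hormone are known to raise the pathway, insulin to lower it, and after a meal the same cells take glucose in, burn it in glycolysis and store it as glycogen.

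Of the 9 genes, 6 had at least 1 lost region in the gene body or within 10 kb, with 15 lost regions in all. The 6 were Pcx, Pck1, Fbp1, G6pc, Slc2a2 and Gys2, and the 3 without one were Gckr, Pklr and Ppargc1a. Those with a lost region were the 4 enzymes of gluconeogenesis, the glucose transporter and the glycogen synthase, and those without were both genes that act on glycolysis and the coactivator. Over all 21755 protein-coding genes the share with a lost region was 25.3%, and over the 3702 genes of similar length to a member it was 26.5%. A lost region lay at an annotated start of the gene itself in Fbp1, G6pc and Slc2a2, where the share over all protein-coding genes was 5.99%. A single Alb-D2KO-only region was found, in Ppargc1a, beside a share of 1.02% of protein-coding genes with such a region.

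**Figure D1:**
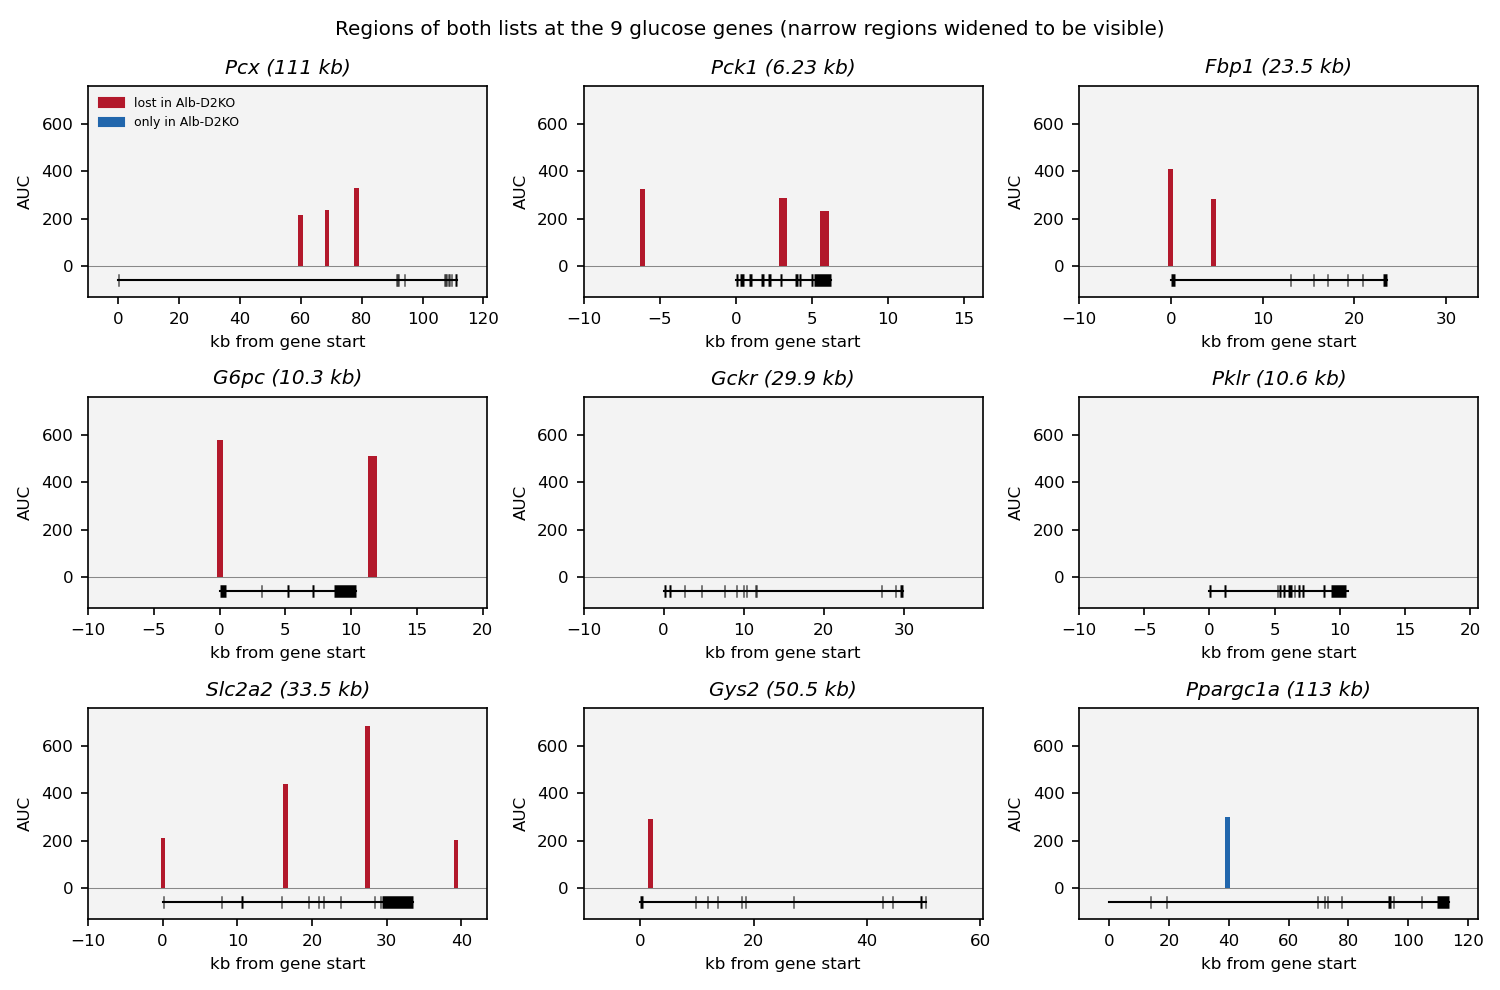
Lost regions (red) and the Alb-D2KO-only region (blue) at each of the 9 genes, with distance from the gene start in kb on the x axis in the direction of transcription and the AUC of each region on the y axis. The black line below is the gene body with its exons as blocks, and the 15 lost regions lie at 6 genes, with the tallest, at 682, in Slc2a2.

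The sequences below show DNA at the 3 gene starts with a lost region, which covers all of the Fbp1 run, 151 of the 250 Slc2a2 bases and all of the 187 G6pc bases, the lost region with the largest AUC, the upstream region of Pck1, the intronic region of Gys2, and the Alb-D2KO-only region of Ppargc1a. Capitals mark exact matches, on either strand, to the core letters searched, which were TGTTTAC (FOXA and FOXO factors), AGGTCA (a nuclear receptor core site) alone or as the direct repeats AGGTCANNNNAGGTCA and AGGTCANAGGTCA, TTGCNNAA (C/EBP), TGACG (CREB), CACGTG (E box), GGGCGG (SP1) and CAAAGTCCA (HNF4). Matches on the other strand appear as the reverse complement, so that AGGTCA is then printed TGACCT. The direct repeats hold the core site within them.
G6pc, the part of its lost region upstream of the gene, chr11:101367374-101367560, + strand: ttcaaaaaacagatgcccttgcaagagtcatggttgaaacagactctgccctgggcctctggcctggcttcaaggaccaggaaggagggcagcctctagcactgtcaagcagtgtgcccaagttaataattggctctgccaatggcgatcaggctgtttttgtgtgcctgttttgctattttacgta
Fbp1, RefSeq promoter before the start, chr13:62888283-62888532, − strand: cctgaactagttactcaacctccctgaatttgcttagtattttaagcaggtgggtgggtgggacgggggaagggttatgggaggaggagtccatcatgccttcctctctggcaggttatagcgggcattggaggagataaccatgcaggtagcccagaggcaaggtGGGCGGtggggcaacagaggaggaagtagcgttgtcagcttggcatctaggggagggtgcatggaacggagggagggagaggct
Slc2a2, RefSeq promoter before the start, chr3:28697653-28697902, + strand: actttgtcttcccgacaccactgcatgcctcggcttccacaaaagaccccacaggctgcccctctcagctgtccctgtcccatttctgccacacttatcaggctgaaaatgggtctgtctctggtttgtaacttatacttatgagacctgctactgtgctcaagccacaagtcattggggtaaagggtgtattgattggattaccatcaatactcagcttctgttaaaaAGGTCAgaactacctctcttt
Slc2a2, intron 8, summit of the lost region, chr3:28725392-28725591, + strand: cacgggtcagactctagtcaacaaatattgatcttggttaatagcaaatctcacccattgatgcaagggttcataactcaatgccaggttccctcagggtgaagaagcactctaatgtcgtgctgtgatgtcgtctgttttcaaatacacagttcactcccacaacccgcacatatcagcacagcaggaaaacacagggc
Pck1, upstream, summit of the lost region, chr2:173146762-173146961, + strand: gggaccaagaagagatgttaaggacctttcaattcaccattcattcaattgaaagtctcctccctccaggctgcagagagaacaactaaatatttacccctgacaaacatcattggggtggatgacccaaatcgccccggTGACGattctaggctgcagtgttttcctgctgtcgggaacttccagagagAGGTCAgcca
Gys2, intron 1, summit of the lost region, chr6:142471200-142471399, − strand: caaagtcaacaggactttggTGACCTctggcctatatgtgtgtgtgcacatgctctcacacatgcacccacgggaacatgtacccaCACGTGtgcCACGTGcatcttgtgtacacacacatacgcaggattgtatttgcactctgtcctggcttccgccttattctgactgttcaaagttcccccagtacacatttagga
Ppargc1a, intron 2, summit of the Alb-D2KO-only region, chr5:51527919-51528118, − strand: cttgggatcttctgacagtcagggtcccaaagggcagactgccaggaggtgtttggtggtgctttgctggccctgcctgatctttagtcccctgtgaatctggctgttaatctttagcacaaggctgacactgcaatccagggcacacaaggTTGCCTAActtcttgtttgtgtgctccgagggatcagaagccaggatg
Promoters were taken from the RefSeq table for GRCm38.p6, the assembly that mm10 stands for, which matched 8 of the 9 genes, all except Gys2.

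Pcx (ENSMUSG00000024892.17, chr19:4510472-4621752, + strand) encodes pyruvate carboxylase, the mitochondrial enzyme that opens gluconeogenesis. Its body of 111 kb held 3 lost regions, all in intron 2, and none lay at an annotated start. The region at chr19:4570280-4570523 was 244 bp wide with an AUC of 216, and lay 11.5 kb from the nearest annotated Pcx start. At chr19:4578911-4579161 the width was 251 bp and the AUC 238, at 15.2 kb from a start. The third, chr19:4588475-4588775, was the strongest of the 3, with an AUC of 329 over 301 bp at 5.57 kb from a start. The first 2 were therefore small for this list, at the percentiles 13.2 and 28.6 of AUC, and the last was above its median, at 68.9. Among the 500 protein-coding genes nearest to Pcx in length (102 to 122 kb), 35.6% had a lost region and 8% had 3 or more.

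Pck1 (ENSMUSG00000027513.11, chr2:173153048-173159273, + strand) encodes the cytosolic phosphoenolpyruvate carboxykinase, a classic target of glucagon and of thyroid hormone. It is the shortest of the 9 genes at 6.23 kb and also had 3 lost regions, which took up 1473 bp. One lay 5.97 kb upstream of the gene, at chr2:173146743-173147073, with an AUC of 324 over 331 bp. A second, chr2:173155887-173156402, covered exon 6 and parts of introns 5 and 6, with an AUC of 286 over 516 bp. The last, chr2:173158548-173159173, lay in the coding and untranslated sequence of exon 10, with an AUC of 232 spread over 626 bp. Both regions in the body were broad and shallow, with 0.555 and 0.371 AUC units per bp, and the exon 10 region had the lowest −log10 q of all 15, at 2.42. The start of Pck1 itself was not in the list. Control regions are numbered along each chromosome, and 1 number is skipped between the upstream and the exon 6 region, so that 1 region open in control and not lost lies somewhere in an interval of 8.81 kb that includes the Pck1 start. Of 500 genes with lengths of 5.93 to 6.54 kb, 17% had a lost region and 1.8% had 3 or more.

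Fbp1 (ENSMUSG00000069805.10, chr13:62864753-62888282, − strand) encodes fructose-1,6-bisphosphatase, which removes a phosphate to pass the step that glycolysis cannot reverse. A lost region at chr13:62888024-62888626 covered its start and part of exon 1 over 603 bp with an AUC of 409. This AUC was at the percentile 85.7 of all lost regions. All 250 bases of the promoter printed above lay inside the region, and the SP1 letters there were 84 to 79 bases before the start. A second region in intron 1, chr13:62883473-62883790, had an AUC of 282 over 318 bp, 4.34 kb from the nearest start. Of 500 genes with lengths of 22.6 to 24.5 kb, 26% had a lost region, 8.6% had at least 2, and 6.6% had one at an own start.

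G6pc (ENSMUSG00000078650.2, chr11:101367561-101377903, + strand) encodes the catalytic subunit of glucose-6-phosphatase, which releases free glucose for export. Its start and the first part of exon 1 lay in a lost region at chr11:101367374-101367834 with an AUC of 577 over 461 bp. The AUC was at the percentile 97.1 of the list and 94.7 of its promoter regions. The summit was 73 bp before the annotated start. A second lost region lay 0.931 kb past the end of the gene, at chr11:101378834-101379543, with an AUC of 510 over 710 bp. It was the widest of the 15, and both G6pc regions were among the 3 with the largest AUC. Of 500 genes with lengths of 9.9 to 10.8 kb, 19.8% had a lost region, 6% had at least 2, and 4.2% had one at an own start. The RefSeq start of G6pc is 155 bp downstream of the GENCODE start, and the lost region covered both.

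Slc2a2 (ENSMUSG00000027690.13, chr3:28697903-28731359, + strand) encodes GLUT2, the glucose carrier of the hepatocyte membrane. It had 4 lost regions, the most of the 9 genes, with a summed AUC of 1537. The region at its start, chr3:28697752-28698115, was weak for a promoter, with an AUC of 212 over 364 bp at the percentile 7.05 of lost promoter regions. It covered 151 of the 250 bases printed above, with the summit 85 bp before the start, and the AGGTCA letters were 21 to 16 bases before it. The strength lay inside the gene. In intron 4, chr3:28713950-28714634 had an AUC of 441 over 685 bp, and in intron 8, chr3:28725078-28725557 had an AUC of 682 over 480 bp, the largest of the 15 and at the percentile 98.9 of the list. The fourth, chr3:28737027-28737306, lay 5.67 kb past the end of the gene with an AUC of 202, close to the minimum of 200. All but the promoter region also lie inside 1700112D23Rik, an annotated antisense gene on the other strand. Skipped numbers place 1 kept control region between the promoter and intron 4 regions and 1 between those of introns 4 and 8. The control calls within Slc2a2 thus included both lost and kept regions. Of 500 genes with lengths of 31.9 to 35.1 kb, 27% had a lost region, 1.6% had 4 or more, and 7% had one at an own start.

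Gys2 (ENSMUSG00000030244.7, chr6:142422613-142473109, − strand) encodes the liver glycogen synthase. Its only lost region within 10 kb lay in intron 1, 1.59 kb inside the gene, at chr6:142471067-142471520, with an AUC of 294 over 454 bp. This value was the median of the 15 in AUC and in width. Of 500 genes with lengths of 47.7 to 53.4 kb, 33.4% had a lost region, which is also the share with as many as Gys2.

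Gckr (ENSMUSG00000059434.9, chr5:31297443-31327314, + strand) encodes the regulatory protein that holds glucokinase in the nucleus, and Pklr (ENSMUSG00000041237.12, chr3:89136142-89146784, + strand) encodes the liver pyruvate kinase, the last enzyme of glycolysis. Neither had a lost region within 10 kb. The nearest one to Gckr was 287 kb away, and the control call had 15 regions in the 615 kb between the lost regions on either side. The nearest one to Pklr was 22.7 kb away, and the control call had 8 regions in the 137 kb between its neighbours. These intervals hold no lost region by construction, and how many of the control regions lie in the genes themselves cannot be read from the lists. Among genes of their length, 26.2% (Gckr) and 20.4% (Pklr) had a lost region, so that having none was the more frequent outcome.

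Ppargc1a (ENSMUSG00000029167.13, chr5:51454250-51567726, − strand) encodes PGC-1α, a coactivator that raises gluconeogenic genes in fasting and mitochondrial genes in many tissues. At 113 kb it is the longest of the 9 genes, and it differed from the other 8 in having a region of the opposite kind. The Alb-D2KO-only region at chr5:51527874-51528280 lay in intron 2, 39.4 kb into the gene and 25.6 kb from the nearest annotated start, with an AUC of 300 over 407 bp and a −log10 q of 3.36. Within the Alb-D2KO-only list, whose median AUC was 226, this was at the percentile 88.8. The nearest lost region was 300 kb from the gene, and the control call had 13 regions in the 7623 kb between the lost regions on either side. Of 500 genes with lengths of 103 to 125 kb, 34.8% had a lost region and 2% had an Alb-D2KO-only one.

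**Figure D2:**
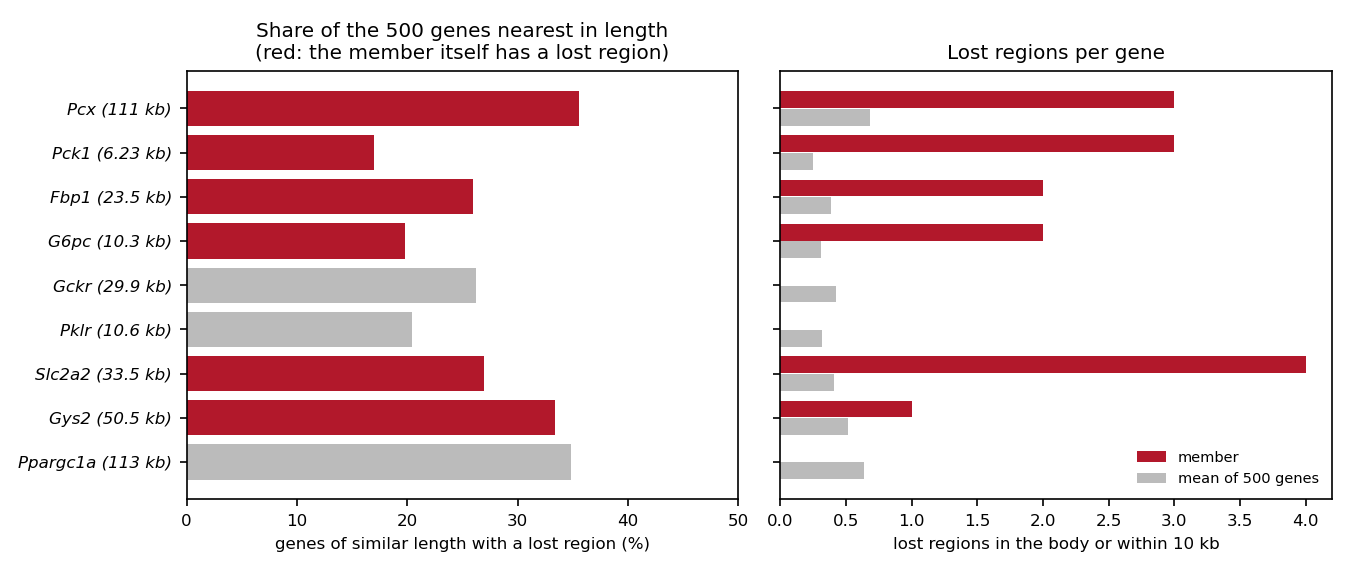
Left, the percentage of the 500 protein-coding genes nearest in length to each member that had a lost region in the body or within 10 kb, in red where the member itself had one and in grey where it had none. Right, the number of lost regions at each member (red) beside the mean over those 500 genes (grey), with members at 0 to 4 and means of 0.252 to 0.684.

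Genes of the same length held fewer lost regions than these 9 genes. The shares of similar-length genes with a lost region add up to 2.4 over the 9 genes, beside 6 observed, and their mean numbers of lost regions add up to 3.94, beside 15. The plot of lost regions per gene shows each gene beside the mean of its length class, such as Slc2a2 with 4 beside 0.406. Since every such mean is below 1, any gene with a lost region lies above it. These comparisons describe 9 chosen genes and were not tested. The sets were matched by length alone, while only regions called open in control liver can be in the list of lost regions. How many of the similar-length genes have open regions in control liver was not counted.

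As over all lost regions, most of the 15 did not lie at starts. By class, 3 were promoter, 2 exon, 8 intron and 2 intergenic regions, and 12 of the 15 overlapped the body of the member gene itself. Of the 8 intron regions, 7 lay in a member, and the other lay inside 1700112D23Rik, past the end of Slc2a2. Over all lost regions, 19.4% were promoter, 10.2% exon, 40% intron and 30.3% intergenic. Their AUC ran from 202 to 682 with a median of 294, and 10 of the 15 were above the list median of 278. Widths ran from 244 to 710 bp with a median of 454 bp, and 10 of the 15 were also above the list median in width. Their summits were less marked, since 11 of the 15 had a −log10 q under the list median, with a range of 2.42 to 3.71. None of the 15 lay within 10 kb of the body of another protein-coding gene.

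**Figure D3:**
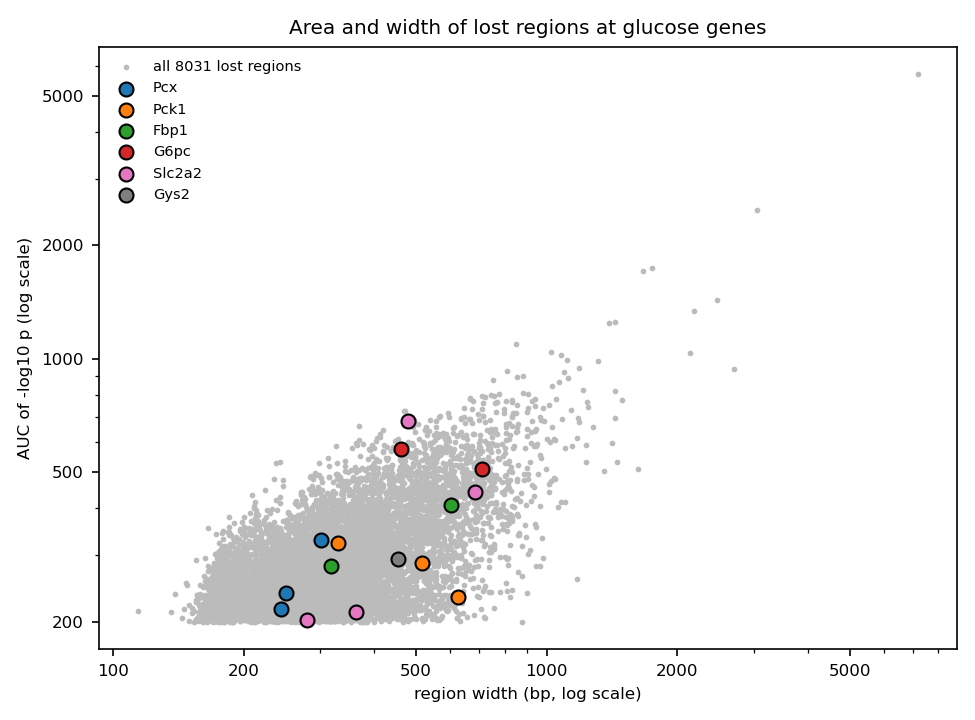
AUC of −log10 p (y axis, log scale) against width in bp (x axis, log scale) for all 8031 lost regions (grey) and the 15 at glucose genes (coloured by gene). G6pc and 2 of the Slc2a2 regions lie highest among the coloured points, from 441 to 682, while the other 2 Slc2a2 regions, at 202 and 212, lie at the lower edge.

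In the plot of area against width, a gene did not hold regions of 1 strength. Slc2a2 ran from 202 to 682, and Pck1 from 232 to 324 with the weakest of its regions also its widest. G6pc had 2 strong regions and Pcx 3 narrow ones.

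Windows of 200 bases around the summits were searched for the letters given above. The core site AGGTCA was in 8 of the 15 windows, namely all 3 of Pcx, the upstream region of Pck1, the promoter region of Slc2a2, the downstream region of G6pc, and the intron 1 regions of Fbp1 and Gys2. It was in 23.7% of 8021 lost regions whose windows were searched and in 14% of 32851 RefSeq promoters of 250 bases. None of the 15 held the direct repeat with 4 bases between, the classic thyroid hormone response element, which was in 0.0249% of all lost windows. The E box was in 2 of the 15, beside 5.81% of all windows, and the SP1 core in 1, beside 14.4%. For C/EBP and CREB the counts were also 1 each, beside 14.3% and 10.9%. The letters of FOXA and FOXO factors and of HNF4 were in 0 of the 15, beside 4.99% and 2.36%. The window of Gys2 printed above held 2 E boxes and an AGGTCA core site, and that of Slc2a2 intron 8 held no match. A lost region can hold letters outside its window. The 250 bases before the G6pc RefSeq start lay inside its lost region and held TGACCT 54 to 49 bases before that start. The summit window of that region held no match. A match says only that the letters are there. Variants of the letters were not searched, so the lack of a match does not show that a site is absent. GC content was 48.5% at the median of the 15 windows and 51.5% over all.

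A further 60 genes of glucose handling were counted in the same way. Of these, 28 (46.7%) had a lost region, with 59 lost regions in all, 6 had one at an own start, and 0 had an Alb-D2KO-only region. Over all protein-coding genes these shares were 25.3%, 5.99% and 1.02%, and a share for genes of the same lengths as the 60 was not computed. The median length of the 60 was 22.4 kb. By role, a lost region was found at 7 of 19 glycolysis genes, 4 of 8 other genes of glucose production and 5 of 12 glycogen genes. The same held for 4 of 11 genes of metabolic switches and fructose, and 8 of 10 genes of hormone receptors and transcription. The 10 of this last role include a glucose transporter gene, Slc2a1, which had 1 lost region with an AUC of 240.

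**Figure D4:**
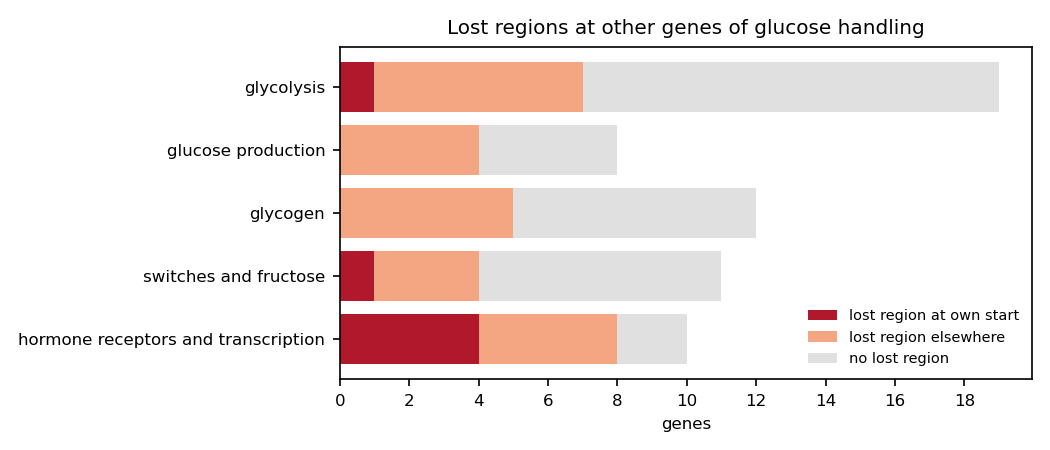
Number of other glucose pathway genes (x axis) by role (y axis), divided into those with a lost region at an own start (dark red), with one elsewhere in the body or within 10 kb (light red) and with none (grey). The role of hormone receptors and transcription has 8 of 10 genes with a lost region, 4 of them at a start. The 8 include Slc2a1, a glucose transporter gene.

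Among the regulators, in the bottom bar of the plot by role, Mlxipl, which encodes the glucose-responsive factor ChREBP, had 5 lost regions with a summed AUC of 2167, of which 2 at its own starts had an AUC of 418 and 450. Klf15, a fasting-induced transcription factor, had 5 with a summed AUC of 2069, and 4 of them lay at its starts, with an AUC of 356, 472, 399 and 502. The glucocorticoid receptor gene Nr3c1 had 3, with 671 and 209 at its starts, and the glucagon receptor gene Gcgr had 3, with 369 at its start. Ppargc1b, the relative of Ppargc1a, had 5 lost regions with a summed AUC of 1582 and none at a start. In glycolysis, Eno1, an enolase gene, had 5 lost regions with a summed AUC of 1616, and 1 of them lay in its body. The muscle enolase gene Eno3 had 2 with a summed AUC of 674, and Pfkl, the liver phosphofructokinase gene, had 2 with 649. None of the Eno3 and Pfkl regions lay in the gene body. In glucose production, Slc37a4, which carries glucose-6-phosphate to glucose-6-phosphatase, had 2 with a summed AUC of 947. Mdh1 and Got1, of the malate and aspartate shuttle, had a summed AUC of 406 and 264. Of the glycogen genes, the branching enzyme gene Gbe1 had 700 and the liver phosphorylase gene Pygl 556 in summed AUC. Pfkfb3, which makes and breaks down the activator of phosphofructokinase, had 4 lost regions with a summed AUC of 1150, one of them at its start with an AUC of 332. Pdk2, a kinase that turns off pyruvate dehydrogenase, had a summed AUC of 457, and Khk, the fructokinase gene, had 311. The lost regions of Mdh1, Pygl and Pdk2 also lay outside the body of the gene, within 10 kb. Which gene such regions belong to was not tested. Lost regions were thus also present in or within 10 kb of glycolytic genes outside the 9. Gckr and Pklr therefore do not stand for the whole of glycolysis.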

How the data were processed

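ATAC-seq was measured in 8 libraries, grouped by the genotype given in the labels. Per the paper's methods and the submitters' processing notes, the authors trimmed adapters with NGmerge, aligned to mm10 with BWA 0.7.17, removed duplicate and poorly mapped reads, called regions with Genrich 0.6 on grouped libraries, and subtracted the regions that overlapped between genotypes. Pooling leaves no replicate error, and no library or batch could be separated. The deposited signal is the AUC of −log10 p. The deposited score is that area per bp times 1000 with a ceiling of 1000, and it was only checked. The deposited −log10 q is that of the summit, and the −log10 p beside it was not used. The last column is the summit's offset. All columns are pooled values of the authors. Depth is unknown, so nothing that needs read counts is given.

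Gene bodies and starts came from GENCODE M21, which is built on mm10 but is an older release than the one in the study's methods. A region was placed by 1 bp of overlap, at a gene if in its body or within 10 kb, at a start if within 200 bp, and in the first class met of promoter, exon, intron and intergenic. Each gene was set beside the 500 protein-coding genes nearest in length. Skipped region numbers were read as control regions that were kept. The 9 genes, the pathway list and the markers were chosen with earlier results of these data known. Pathway genes named with values are those with a region at an own start and the 3 with the largest summed area per role. Some genes that this rule names are not reported here. Motifs were exact letters on both strands. The counting was tested on simulated data. Python 3.11.15, numpy 2.4.6, pysam 0.24.0 and matplotlib 3.10.9 were used. Alternatives were other distances, minimum values, merging, midpoints, start windows and numbers of similar genes.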

Additional observations from a re-analysis of the deposited data

How the results depend on the processing

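Of 46 alternative values of the counts and shares described, 35 stayed close to the value reported, meaning within 1.5 times for a count and within the 95% Wilson interval for a share. The share of similar-length genes with a lost region, 26.5%, moved to 17.7% with the gene body alone, 22.3% within 5 kb, 46.2% within 50 kb, 13.7% with an AUC of at least 300, 21% with a −log10 q of at least 3, and 23.4% with a width of at least 200 bp. The 15 lost regions became 23 within 50 kb, 7 with the AUC minimum and 7 with the −log10 q minimum. The 3 genes with a lost region at an own start became 1 with the −log10 q minimum and 5 with a start window of 3000 bp. The 6 genes with a lost region became 7 within 50 kb, 5 with the AUC minimum and 4 with the −log10 q minimum. Pck1 had 0 lost regions with the −log10 q minimum, and Gys2 had 0 with either minimum. The 28 pathway genes ranged from 19 to 42. No paired analysis was possible because both lists pool the libraries of a genotype, and for the same reason no replicate could be left out. With values from pooled calls and unknown depth, a region missing from a list is not shown to be equally open in both genotypes. Nor is a lost region shown to be closed in the knockout, only to lack an overlapping call there.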

Other observations

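Beyond 10 kb, the surroundings of the 9 genes held 8 more lost regions within 50 kb, at 5 genes. The strongest was 12.5 kb upstream of Pcx, with an AUC of 715 over 694 bp in an exon of 2010003K11Rik, and a second lay 11.7 kb upstream of Pcx at the start of that gene, with an AUC of 267. Pck1 had a region of 748 bp and AUC 413 at 28.2 kb upstream and one of AUC 353 at 27.2 kb downstream. The upstream one was of promoter class, and Ctcfl was the coding gene nearest to it. Pklr, with none within 10 kb, had regions of AUC 606 and 204 at 44.9 and 22.7 kb upstream. The stronger was of exon class and overlapped another coding gene, Gm43738, and Fdps was the coding gene nearest to the weaker. G6pc and Slc2a2 each had 1 more downstream, with an AUC of 211 at 17.4 kb and 283 at 14.9 kb. Fbp1, Gckr, Gys2 and Ppargc1a had no further lost region within 50 kb. Which gene these regions act on, if any, was not tested.

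Over all protein-coding genes, 1991 had 2 or more lost regions, and in 56.6% of them no kept control region lay between the first and the last. Among the 5 glucose genes with 2 or more, Pcx, Fbp1 and G6pc likewise had no kept region between the first and the last. In all, 3 kept regions lay between the 14 lost ones of these 5 genes, in Pck1 and Slc2a2.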
